A study of Bos taurus with 20 samples.

Results

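CADM3, SLITRK4, NEFH and SCG2 are 4 genes of neuronal adhesion, axons and secretory granules, out of 14713 genes with a symbol on the array, and their RNA was followed in head skin of scurred, polled and horned cattle. The rule names 1 probe for each gene, and CADM3 has a further probe, called its second probe here, so that 5 probes of 21475 are described. The genes were chosen with measured values of these same arrays in view. CADM3 and SLITRK4 were selected on polled against horned skin, where they stood at ranks 9 and 5 of 15709 tested probes ordered by p, and CADM3 also stood at rank 2 in scurred against horned skin. The value that selected the other genes is not given in the sources used here, but NEFH stood at rank 5 in scurred against polled skin, and SCG2 had the second lowest ratio of horn site over control site in the polled animal. The horn type and site values below are therefore a description, with no test. The difference between males and females is not known to have been used for the choice and was tested, though in the same fit as the horn types.

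RNA came from skin biopsies holding epidermis, dermis and connective tissue, cut from the place on the skull where a horn forms. There were 4 scurred animals (labelled Scur, with loose rudimentary horns), of which 3 were male and 1 female, 4 polled animals (labelled Poll, hornless), of which 1 was male and 3 female, and 3 horned animals (labelled Horn), of which 2 were male and 1 female. Each of chips 1 to 4 joined 1 scurred, 1 polled and 1 horned animal on 4 Agilent 2-colour arrays, with horned animal 2 on chips 2 and 4. Chip 5 compared the horn site with control skin from elsewhere on the skull in polled animal 3 and scurred animal 2, both female, with both dye orders. Age and breed are not given in the sources used here. The horn type groups share tissue and site, and their make-up by sex was uneven. On each of chips 1 to 4 the scurred and the polled animal were of opposite sex, so scurred minus polled within a chip is also a difference of sex.

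CADM3 is a cell adhesion molecule of the immunoglobulin superfamily that sits on axons and joins neurons to each other and to glia. SLITRK4 is a transmembrane protein with leucine-rich repeats that acts at synapses, where proteins of its family bind receptor tyrosine phosphatases. NEFH is the heavy subunit of neurofilaments, the filaments that fill large axons, and is built into them together with the light and medium subunits NEFL and NEFM. SCG2 is a granin, a protein packed into the dense-core vesicles of neurons and endocrine cells and cut there into peptides such as secretoneurin. The cell bodies of the nerves that reach skin lie in ganglia outside it, so a biopsy holds their axons, with glia and endings, but not their nuclei.

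The probes are 60 bases long, and the last 30 bases of each, at the 3′ end, are shown because every value below rests on hybridization to them. They were read from the deposited scanner files, and their genome positions are not given here.

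CADM3: caccctcaatatatctggattatccgtgtc
CADM3 second probe: ctggaggggcacgggtcctggggtgagaaa
SLITRK4: agttggtggaactggaatactccttttgat
NEFH: ttcaattgcttctgtgcAATAAAaccaagt
SCG2: gctcacatataatagagtgtcctacaagtc

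The capitals mark AATAAA, the hexamer that precedes the cleavage site of many messenger RNAs, searched on the printed strand of the whole probes. It occurs in 1 of the 5 probes, that of NEFH, and in 11.8% of all 21475 probes on the array. The longest run of bases that the whole CADM3 probes share is 7. Each probe was spotted 2 times on every array, and no spot of the 5 probes was flagged as uneven or saturated.

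Values are log2 intensities (levels, set on 1 scale across arrays by quantile normalization of mean brightness) or log2 ratios between RNAs of the same chip (differences). Well above background were 64.5% to 73.5% of the spots on an array, and precision is set by how few animals there were. Repeats with exchanged dyes had correlations across probes between −0.948 and −0.821 for horn types, and of −0.675 and −0.723 for the sites. Scurred animal 1 stood apart, its levels correlating at 0.923 on average with those of the remaining animals, which had averages of 0.949 to 0.965. Without that animal the fitted scurred minus horned differences described below would be −1.15 for CADM3, −1.16 for its second probe, −0.58 for SLITRK4, −0.78 for NEFH and −1.11 for SCG2. The scan of chip 1 has a separate day in its header. In bulk skin, fewer cells of a type and less RNA per cell cannot be told apart.

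CADM3 was lower in every scurred and polled animal than in any horned animal. Its level was 9.57, 9.21, 8.94 and 9.55 in scurred animals 1 to 4 and 9.54, 9.42, 9.34 and 9.42 in polled animals 1 to 4, against 10.46, 10.59 and 10.31 in horned animals 1 to 3. The groups averaged 9.32 ± 0.30 in scurred, 9.43 ± 0.08 in polled and 10.45 ± 0.14 in horned animals (SD, n = 4, 4 and 3). The scurred and polled ranges overlapped, and neither overlapped the horned range.

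**Figure D1:**
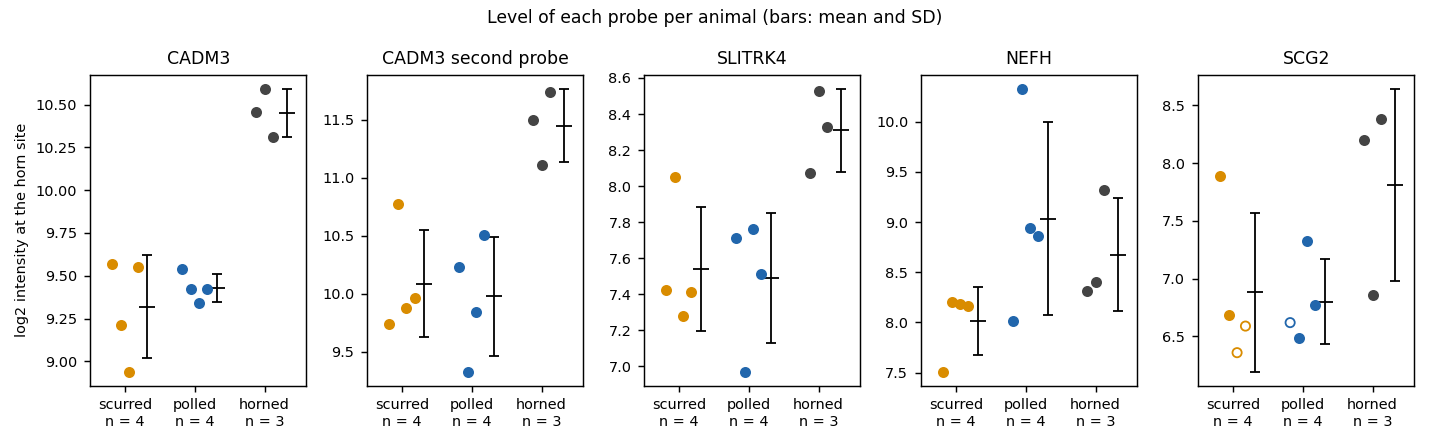
Levels of the 5 probes at the horn site in each scurred, polled and horned animal, as log2 intensity on a separate vertical axis per probe, with the mean and SD as bars. Open circles mark animals in which more spots were not well above background than were. The CADM3 levels of the 3 horned animals, 10.31 to 10.59, stand above those of all scurred and polled animals, while NEFH levels of scurred and polled animals, and SCG2 levels of all groups, overlap.

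Set against the horned animal of its own chip, CADM3 differed by −0.84, −1.32, −1.24 and −1.02 in scurred animals 1 to 4 and by −0.84, −1.10, −0.97 and −1.08 in polled animals 1 to 4. All 8 differences were negative, with an SD of 0.22 among the scurred and 0.12 among the polled animals. Over all probes, 9.73% were lower in 4 of 4 scurred animals, 13.1% in 4 of 4 polled animals and 3.04% in all 8, and nothing is read from the members' place in these shares, since they were chosen on them. The fit adjusted for sex put CADM3 at −1.09 (SE 0.128) in scurred minus horned, which is 2.13-fold lower, and at −0.97 (SE 0.134) in polled minus horned, 1.96-fold lower. On single arrays, scurred over horned ratios ran from −1.38 to −0.92 in the 1 dye order used, and polled over horned ratios from −1.18 to −0.73 over both dye orders. Scurred minus polled was 0, −0.21, −0.27 and 0.06 on chips 1 to 4, so the direction was not shared by the chips.

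The second CADM3 probe was also lower in all scurred and polled animals, with a wider spread. Its level was 9.74, 10.77, 9.88 and 9.96 in scurred animals 1 to 4 and 10.23, 9.33, 9.84 and 10.51 in polled animals 1 to 4, against 11.5, 11.11 and 11.74 in horned animals 1 to 3. No scurred or polled level reached the lowest horned level. Within chips it differed by −1.83, −0.43, −1.82 and −1.15 in scurred animals and by −1.30, −1.92, −1.99 and −0.59 in polled animals 1 to 4. The 3 differences nearest to 0 were all against horned animal 2, whose level was the lowest of the horned animals. The fit gave −1.33 (SE 0.34) for scurred minus horned and −1.73 (SE 0.357) for polled minus horned. Without chip 2 the polled value was −0.72, and without horned animal 2 it was −2.48. The 2 probes thus shared their direction in 8 of 8 animals but not their order among animals, with a Spearman rho of 0.476 and a Pearson r of 0.792 over 12 values per animal and chip, which share chips and, in part, animals.

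SLITRK4 was lower than the chip's horned animal in all scurred and polled animals, and none of their levels reached the lowest horned level. Its level was 7.42, 8.05, 7.28 and 7.41 in scurred animals 1 to 4 and 7.71, 6.97, 7.76 and 7.51 in polled animals 1 to 4, against 8.07, 8.53 and 8.33 in horned animals 1 to 3. Scurred animal 2, at 8.05, came closest to the lowest horned animal, at 8.07, and polled animal 2 was lowest of all. The groups averaged 7.54 ± 0.35 in scurred, 7.49 ± 0.36 in polled and 8.31 ± 0.23 in horned animals (SD, n = 4, 4 and 3), and the scurred and polled ranges overlapped.

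Within chips, SLITRK4 differed from the horned animal by −0.60, −0.39, −0.87 and −1.04 in scurred animals 1 to 4 and by −0.30, −1.57, −0.55 and −0.88 in polled animals 1 to 4. The fit gave −0.60 (SE 0.118) for scurred minus horned, 1.52-fold lower, and −1.01 (SE 0.124) for polled minus horned, 2.01-fold lower. The sizes depended on the processing. With the signals processed by the scanner software they were −1.08 in scurred and −1.64 in polled minus horned, the direction being kept. That setting changes background correction and normalization together, and which of them moved the sizes was not tested. Scurred minus polled was −0.30, 1.18, −0.33 and −0.16 on chips 1 to 4, with the positive value on the chip of polled animal 2. The fit adjusted for sex put it at 0.42 (SE 0.121), which was 0.11 without chip 2 and 0.10 with no term for sex.

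**Figure D2:**
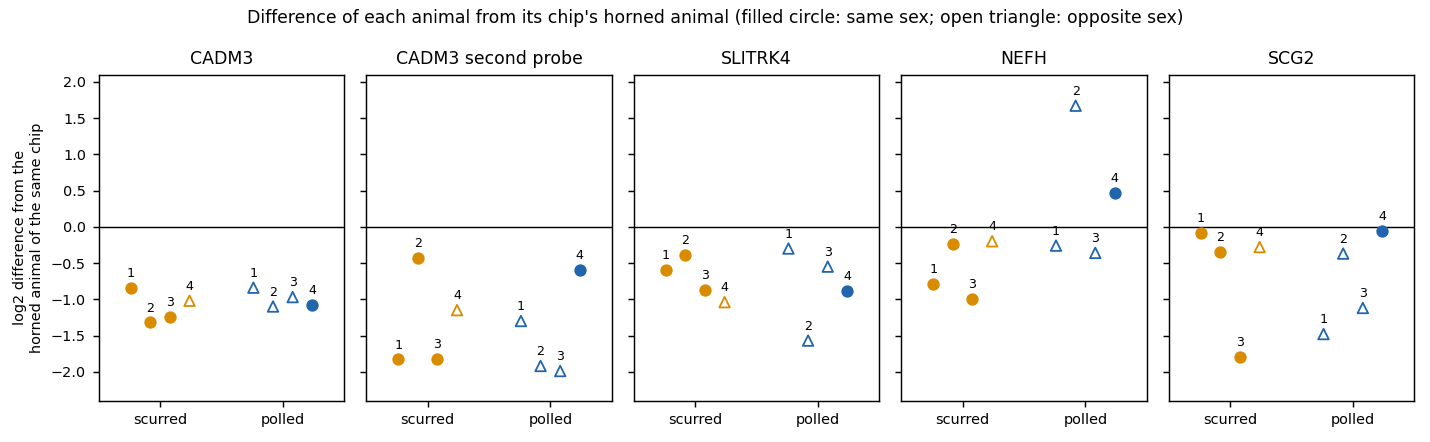
Difference of each scurred and polled animal (numbered 1 to 4) from the horned animal of the same chip, in log2 units on 1 shared vertical axis, with filled circles for pairs of the same sex and open triangles for pairs of opposite sex. All 8 points of CADM3, of its second probe, of SLITRK4 and of SCG2 lie below 0, and NEFH lies above 0 in polled animals 2 and 4.

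NEFH had its widest gap of group means between scurred and polled animals, but only the scurred and horned ranges did not overlap. Its level was 7.51, 8.20, 8.18 and 8.16 in scurred animals 1 to 4 and 8.01, 10.33, 8.94 and 8.86 in polled animals 1 to 4, against 8.31, 8.40 and 9.32 in horned animals 1 to 3. Every scurred animal lay below every horned animal and, polled animal 1 aside, below every polled animal, while the polled range enclosed the horned one. The means were 8.01 ± 0.33 in scurred, 9.04 ± 0.96 in polled and 8.68 ± 0.56 in horned animals (SD, n = 4, 4 and 3), and polled and horned did not differ beyond their spread.

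Scurred minus polled NEFH was −0.53, −1.91, −0.62 and −0.67 on chips 1 to 4. It was negative on 4 of 4 chips, as were 9.5% of the probes tested, and chip 2 gave the widest gap. A male scurred animal met a female polled one on chips 1, 3 and 4, and the reverse held on chip 2. Within a chip, horn type and sex therefore cannot be told apart. The fit adjusted for sex, with a male minus female term of 0.74, put the difference at −1.31 (SE 0.208), 2.48-fold lower in scurred skin. It was −0.87 without polled animal 2, and with all animals kept it ran from −1.52 to −0.93 over the alternative settings. Against the horned animal of the chip, NEFH differed by −0.79, −0.24, −0.99 and −0.20 in scurred animals 1 to 4 and by −0.26, 1.67, −0.36 and 0.47 in polled animals 1 to 4. All scurred animals were lower, and the polled animals were split. The fit gave −0.78 (SE 0.205) for scurred minus horned. It gave 0.53 (SE 0.215) for polled minus horned, which was 0.17 without polled animal 2 and 0.25 with no term for sex.

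SCG2 lay near background in several animals, and all of its differences from horned animals were below 0. Its level was 7.89, 6.69, 6.36 and 6.59 in scurred animals 1 to 4 and 6.62, 6.49, 7.33 and 6.77 in polled animals 1 to 4, against 8.20, 6.86 and 8.38 in horned animals 1 to 3. Horned animals 1 and 3 and scurred animal 1, all male, were highest. The lowest levels, in scurred animals 3 and 4 and polled animal 2, were also those of males. Horned animal 2, a female, was among the levels of the other groups. The probe was well above background on 0 of 4 spots in scurred animal 3, on 1 of 4 in scurred animal 4 and on 2 of 6 in polled animal 1, so that their levels are close to bounds. The means were 6.88 ± 0.69 in scurred, 6.80 ± 0.37 in polled and 7.81 ± 0.83 in horned animals (SD, n = 4, 4 and 3), with overlapping ranges.

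Within chips SCG2 differed from the horned animal by −0.08, −0.35, −1.80 and −0.28 in scurred animals 1 to 4 and by −1.48, −0.37, −1.12 and −0.06 in polled animals 1 to 4. All values were below 0, and 4 of the 8 were within 0.35 of it. Scurred animal 3 was at least 3.45-fold lower than horned animal 3, taking the lowest signal well above background in its arrays as the bound. The fit gave −0.77 (SE 0.38) for scurred minus horned and −0.76 (SE 0.399) for polled minus horned. With the signals processed by the scanner software these were −2.14 and −1.75. The scurred value was −0.39 without scurred animal 3, −0.48 without horned animal 3 and −0.37 without chip 3, and the polled value was −0.50 without polled animal 1 and −0.25 without chip 2.

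The share of probes past a threshold gives the background of these fits. In polled minus horned, 0.00637% of 15709 probes had an adjusted p under 0.05 (limma with Benjamini-Hochberg adjustment) and 9.27% an unadjusted one. In scurred minus horned 0% passed after adjustment and 3.72%, or 584 probes, without it. Neither contrast gives a test for the members, which were chosen on them.

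Sex was tested, as no member is known to have been chosen on it. The sex term comes, however, from the same fit as the horn type contrasts and shares their residual variance, and sex was uneven over horn types. The ranks, intervals and p-values of the members for sex are therefore not free of the choice. In the fit over 11 animals, 0.0191% of the probes differed between males and females at an adjusted p under 0.05 and 2.07% at an unadjusted one, and none of the 5 member probes passed after adjustment over all probes. SLITRK4 had a fitted male minus female difference of −0.64 (SE 0.108, 95% interval −0.89 to −0.38 for this probe alone, adjusted p 0.876, limma). NEFH had one of 0.74 (SE 0.186, interval 0.31 to 1.18, adjusted p 1). They stood at ranks 10 and 33 of all probes by p, and over the alternative settings the adjusted p ran from 0.467 to 1 for SLITRK4 and from 0.748 to 1 for NEFH. CADM3 had a fitted difference near 0, at 0.01 (SE 0.116, interval −0.26 to 0.29, adjusted p 1). The second CADM3 probe stood at −0.50 (SE 0.31, interval −1.23 to 0.23) and SCG2 at 0.27 (SE 0.346, interval −0.54 to 1.09), each with an adjusted p of 1.

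Some sex values moved when an animal or chip was left out. The NEFH value was 0.34 without polled animal 2, a male, but 0.73 without the whole of chip 2, and that of SLITRK4 was −0.57 without polled animal 2 and −0.38 without chip 2. For the second CADM3 probe the sign turned, to 0.86, without chip 2. The sexes were mixed unevenly over horn types, and 4 of the 8 pairs of a scurred or polled animal with its horned animal were of the same sex, namely 3 scurred and 1 polled pair. In these 4 pairs CADM3 differed by −1.32 to −0.84, against −1.10 to −0.84 in the pairs of opposite sex, so both kinds of pair covered about the same range. SLITRK4 differed by −0.88 to −0.39 in pairs of the same sex and by −1.57 to −0.30 in pairs of opposite sex. NEFH differed by −0.99 to 0.47 in pairs of the same sex and by −0.36 to 1.67 in the others.

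The comparison of horn site with control skin in 2 animals set SCG2 and NEFH apart from CADM3. SCG2 had a level of 7.81 at the horn site of polled animal 3, against 11.81 in its control skin, and 6.54 at the horn site of scurred animal 2, against 6.58 in its control skin. The site difference was −3.69 and −4.31 in the 2 dye orders in the polled animal, a mean of −4.0, and −0.03 in the scurred animal, where 2 of 4 spots were well above background at each site. The control skin of polled animal 3 was far above the 6.36 to 8.38 seen at the horn site of the 11 animals, whereas the control skin of scurred animal 2 lay among the lower of them. Of the 15290 probes tested there, 0.177% were at least 2 log2 units lower at the horn site of the polled animal. By this ratio SCG2 stood next after the epidermal keratin KRT10, at −4.44, and before the cytokine IL6, also −4.0, and C4BPA, a chain of a complement inhibitor, at −3.43. These genes are named after their values were seen, and in scurred animal 2 they stood at 3.92, 0.41 and 2.6.

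NEFH had opposite site differences in the 2 animals. It had a level of 8.80 at the horn site of polled animal 3, against 7.58 in its control skin, and 8.17 at the horn site of scurred animal 2, against 9.11 in its control skin. The differences were 1.22 and −0.94, with the same sign in both dye orders of each animal. Opposite signs with at least 0.5 log2 units in each animal occurred in 2.47% of the probes. SLITRK4 was higher at the horn site in both, by 0.39 in polled animal 3 and 0.82 in scurred animal 2, and CADM3 differed little, by 0.13 and 0.05, with 0.13 and 0.21 for its second probe. With 2 animals, 0% of the probes passed an adjusted p under 0.05 in limma and 4.71% (720 probes) an unadjusted one. No member is tested here, since SCG2 may have been chosen on this ratio.

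**Figure D3:**
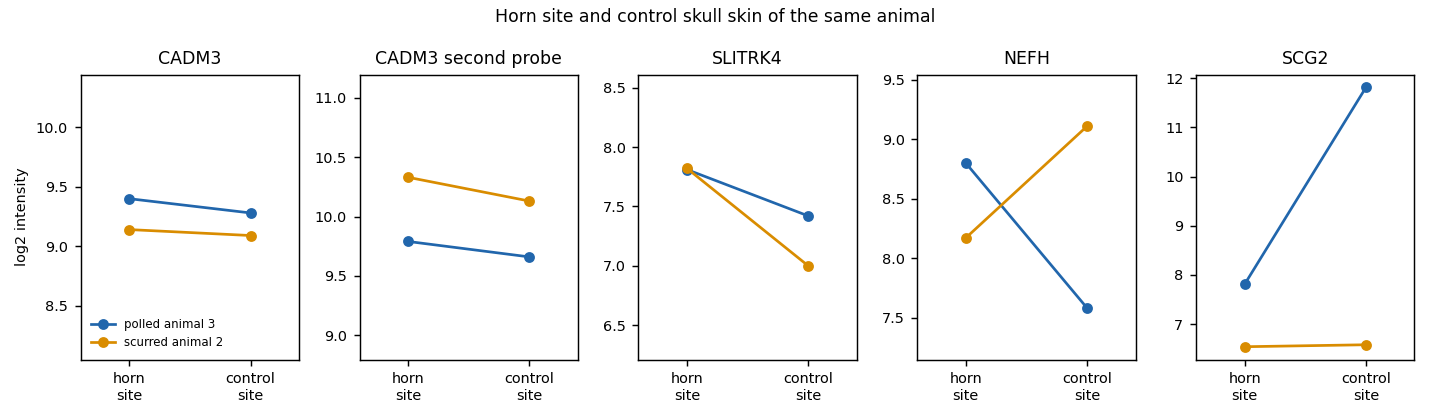
Level of each probe in skin of the horn site and in control skin of the skull, as log2 intensity, joined by a line for polled animal 3 and for scurred animal 2. SCG2 has a site difference of −4.0 in the polled animal and −0.03 in the scurred one, and the NEFH lines cross.

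Among themselves, the members did not form 1 pattern over the 12 values per animal and chip, each taken from its chip mean. CADM3 and SLITRK4 correlated at a Pearson r of 0.774, the second CADM3 probe and SLITRK4 at 0.879, and CADM3 and SCG2 at 0.643. NEFH stood apart, at 0.123 with CADM3, 0.201 with SCG2 and −0.339 with SLITRK4. The points share chips and the low or high group, so these values are a description. Of 12559 other probes with a symbol, those most like CADM3 were CASP4 (0.955), TGM2 (0.95), CFAP410 (0.936), DCTN1 (0.926) and RPS20 (0.913). The probes most like SLITRK4, among 12560, included SVOP (0.937), ANAPC7 (0.928), SCCPDH (0.927) and HAPLN2 (0.927). For NEFH they were PDGFA (0.909), TXNL1 (0.898), VIRMA (0.895), SGPP1 (0.892) and CUX1 (0.878), and for SCG2 they were SIRT4 (0.940), G3BP1 (0.926), ABCF3 (0.920), ATP2B3 (0.917) and EVI5L (0.896). The second CADM3 probe was most like GDF6 (0.948), SLC22A4 (0.931), PPP1R42 (0.930), CADPS (0.928) and DDX31 (0.924). Apart from CADPS, a vesicle priming factor, none of these named genes belongs to the neuronal lists described next. Those lists do not hold every gene of neurons, so whether the remaining named genes are neuronal is not judged here.

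The label of neuronal genes was checked against other genes of axons, granules and neurons, counted as detected in an animal when its spots were well above background at least as often as not. Of 16 axon cytoskeleton genes on the array, 6 were detected in all 11 animals, among them GAP43, a growth cone protein, and MAP1B. NEFL, the light neurofilament subunit, was detected in 0 animals, the medium subunit NEFM in 3 and the related INA in 1, whereas NEFH was well above background on all of its spots. STMN2, a stathmin of neurons, was detected in 2 animals and ELAVL4, a neuronal RNA-binding protein, in 1. NEFL, NEFM and INA were therefore at or near background in most animals. Others of the same list were not, with PRPH and UCHL1 detected in 9 animals and KIF5C in 10.

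Granule genes gave a similar split. Of 16 on the array, 10 were detected in all 11 animals, including VGF and SCG5, while the classical granins CHGA and CHGB, the granin SCG3 and the prohormone convertases PCSK1 and PCSK2 were detected in 0. Of 16 neuropeptide and neuron marker genes, 3 were detected in all animals, namely TH, GAL and RET, and 8 in fewer than 3, with CALCA, CHAT, SCN10A and ADCYAP1 in 0. Many genes that define neurons were thus not detected, and by the same rule SCG2 was not detected in scurred animals 3 and 4 and polled animal 1. The cell types that gave the members' signal were not measured here.

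**Figure D4:**
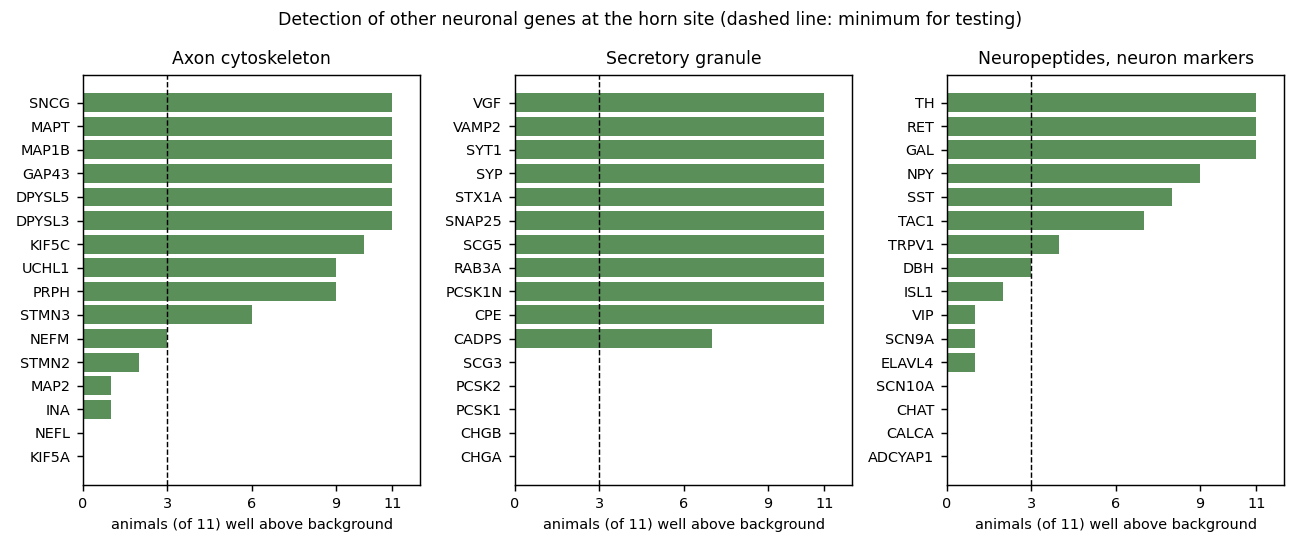
Number of the 11 animals in which each other gene of the axon cytoskeleton, secretory granule and neuropeptide lists was well above background at the horn site, as bars from 0, with a dashed line at the 3 animals needed for testing. NEFL, CHGA, CHGB, SCG3, PCSK1 and PCSK2 stand at 0, and NEFM at 3.

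None of the genes in the related lists passed after adjustment over all probes. In polled minus horned, 9 of 12 synaptic and axonal adhesion genes were lower (median −0.31), 7 of 12 SLITRK and partner receptor genes (median −0.17), 6 of 11 axon cytoskeleton genes (median −0.15) and 7 of 11 granule genes (median −0.03), against 48.3% of all 11566 genes (median 0.01). In scurred minus horned the counts were 9 of 12 (median −0.20), 8 of 12 (median −0.29), 5 of 11 (median 0.14) and 6 of 11 (median 0), against 48% (median 0.01). The closest relatives of CADM3 did not share its shift, with 2 of 5 CADM and nectin genes lower in scurred minus horned (median 0.03) and 1 of 5 in polled minus horned (median 0.04). Neuropeptide and neuron marker genes were higher in 8 of 8 in scurred minus horned (median 0.16) and in 6 of 8 in polled minus horned (median 0.14). By animal the sign of their median was mixed. It was 0.427, −0.032, 0.09 and −0.143 in scurred animals 1 to 4 and 0.272, −0.043, −0.011 and 0.061 in polled animals 1 to 4. Of the 13 axon guidance genes 4 were lower in scurred (median 0.08) and 7 in polled minus horned (median −0.05).

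Genes of these lists with an unadjusted p under 0.05 (limma) are given by name. In polled minus horned they were 3 of 12 SLITRK and partner, 2 of 12 adhesion, 1 of 11 cytoskeleton, 1 of 11 granule and 2 of 13 guidance genes. In scurred minus horned they were 2 of 12, 1 of 12, 0 of 11, 1 of 11 and 1 of 13. The CADM and nectin list and the neuropeptide list gave 0 in both. Over all probes the shares were 9.27% in polled and 3.72% in scurred minus horned. NCAM2, a neural cell adhesion molecule, had −0.96 (SE 0.338) in scurred and −1.63 (SE 0.355) in polled minus horned. SLITRK1, of the same family as SLITRK4, had −0.50 (SE 0.19) and −0.68 (SE 0.199), and the synaptic protein LRRTM1 −0.28 (SE 0.11) and −0.39 (SE 0.115). These 3 were lower in 4 of 4 scurred and 4 of 4 polled animals, as were 3.04% of all probes. The named genes were picked by p, so nothing is read from their agreement over animals. CADPS stood at −0.74 (SE 0.212) and −0.97 (SE 0.223), also lower in 4 of 4 and 4 of 4. The genes that follow passed in 1 of the comparisons, and whether they differ between the comparisons is not claimed. NFASC, which anchors axonal nodes, had −0.95 (SE 0.438) in scurred and −1.33 (SE 0.46) in polled minus horned, lower in 4 of 4 and 4 of 4 animals, and passed in polled. KIF5C, an axonal transport motor, had −0.20 (SE 0.26) and −0.67 (SE 0.273), and LRRTM4 −0.07 (SE 0.104) and −0.29 (SE 0.109), both passing in polled. The guidance receptors ROBO2, at 0.44 (SE 0.21) and 0.88 (SE 0.22), and EPHA4, at 0.09 (SE 0.166) and 0.56 (SE 0.174), also passed in polled. ROBO1 had 0.42 (SE 0.167) in scurred, where it passed, and −0.05 (SE 0.175) in polled minus horned. Adjusted p-values lay between 0.427 and 0.528 for the genes named in polled minus horned and were 1 for all named in scurred minus horned.

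**Figure D5:**
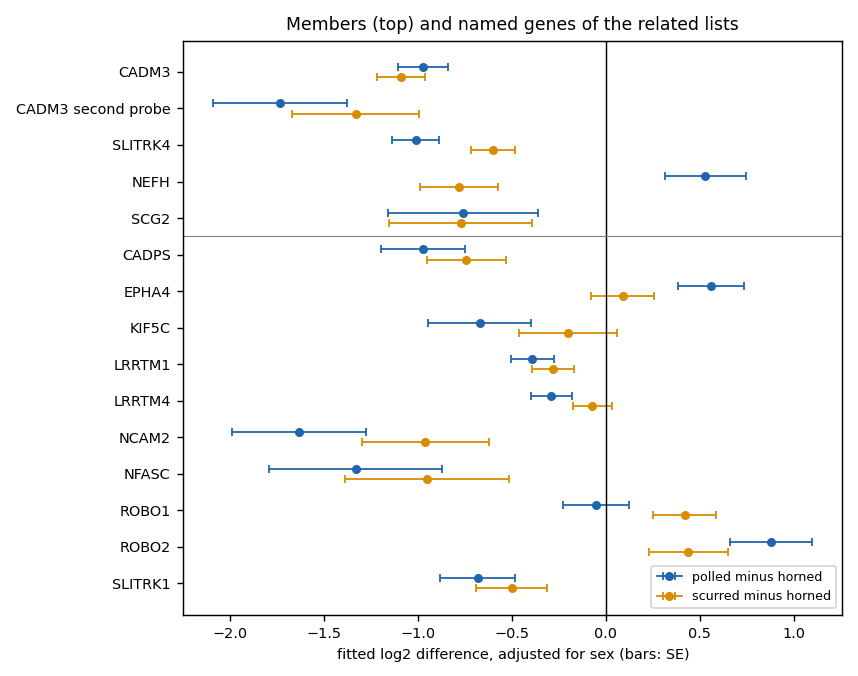
Fitted difference of each member probe (top) and of the 10 named related genes, polled minus horned in blue and scurred minus horned in orange, in log2 units with the SE as bars. CADM3, SLITRK4 and SCG2 lie below 0 in both comparisons, as do NCAM2, NFASC, CADPS and SLITRK1, while ROBO2 lies above 0.

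Markers of Schwann cells, the glia that wrap skin axons, had mostly negative fitted differences from horned skin, as did those of vessels. In scurred minus horned 12 of 16 were lower (median −0.26) and in polled minus horned 14 of 16 (median −0.35). Smooth muscle and pericyte markers were lower in 13 of 13 in scurred (median −0.62) and 12 of 13 in polled minus horned (median −0.39), and endothelial markers in 12 of 12 (median −0.28) and 11 of 12 (median −0.25). By animal, both vessel medians were below 0 in every scurred animal. In polled animals 1 to 4 the endothelial median was 0.275, −0.533, 0.325 and −0.696. The smooth muscle median there was −1.194, −0.375, 0.462 and −0.131. The mean level of the Schwann cell markers ran from 9.67 to 10.44 in scurred and 9.88 to 10.50 in polled, against 10.23 to 10.66 in horned animals, and the defining marker SOX10 was detected in 0 animals. By animal, the median over these genes was −0.909, −0.263, −0.056 and −0.164 in scurred animals 1 to 4 and −0.025, −0.788, 0.161 and −0.367 in polled animals 1 to 4. CADM3 was below 0 in every scurred and polled animal, and that median in all of them but polled animal 3, where CADM3 was at −0.97. SLITRK4 was lowest among the polled in animal 2, at −1.57, as was that median, but among the scurred it was lowest in animal 4, at −1.04, and the median in animal 1. At the horn site 14 of 15 of these genes were higher than in control skin (median 0.51). Of the members, SLITRK4 was higher there in both animals. CADM3 (0.13 and 0.05) and its second probe (0.13 and 0.21) were higher by little. NEFH was higher in polled animal 3 alone, and SCG2 was at −4.0 in polled animal 3 and −0.03 in scurred animal 2. In male minus female 14 of 16 Schwann cell markers were lower (median −0.33). The part of Schwann cells and vessels in the members' values was not tested.

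Markers of other cell types in the biopsies also differed between the groups. Keratinocyte markers were higher in 11 of 11 in scurred (median 1.60) and in polled minus horned (median 1.78), with mean levels of 9.08 to 13.43 in scurred and 9.89 to 11.82 in polled, against 8.84 to 9.80 in horned animals. Fibroblast and matrix markers were lower in 13 of 13 in polled minus horned (median −1.16) but in 5 of 13 in scurred minus horned (median 0.05), with mean levels of 13.38 to 14.54 in scurred and 12.46 to 13.71 in polled, against 14.20 to 14.38 in horned animals. Skeletal muscle markers were higher in 10 of 11 in scurred (median 1.29) and in polled minus horned (median 1.65), higher in 10 of 10 at the horn site than in control skin (median 2.47) and lower in 11 of 11 in male minus female (median −2.04). Their mean level ranged from 9.91 to 12.33 in scurred and 9.44 to 14.88 in polled, against 7.75 to 12.39 in horned animals. Melanocyte markers were higher in 10 of 10 in scurred (median 1) and in polled minus horned (median 1.16), and lymphocyte markers in 8 of 8 (median 0.79) and 8 of 8 (median 0.65). Macrophage and dendritic cell markers were lower in 3 of 11 in scurred (median 0.19) and in 10 of 11 in polled minus horned (median −0.81). Among them AIF1, named after its value was seen, was the 1 probe of the array that passed in polled minus horned, at −1.71 (SE 0.115, adjusted p 0.0201, limma). Hair follicle markers were higher in 5 of 10 in scurred (median 0) and 8 of 10 in polled minus horned (median 1.06). Markers listed for perineurium and endoneurial fibroblasts were higher in 7 of 8 (median 0.12) and 6 of 8 (median 0.37). That list shares SOX9 with the hair follicle list and NGFR with the Schwann cell list, so it does not stand for perineurium alone. Merkel and neuroendocrine markers, from cells that hold dense-core granules, were lower in 1 of 4 in scurred (median 0.01) and 4 of 4 in polled minus horned (median −0.19), with 3 of 8 on the array detected in 0 animals. The 3 were KRT20, ATOH1 and CHGA, whereas SOX2, INSM1 and SYP of the same list were detected in all 11 animals. The part of these cell types in the members' values was not tested.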

How the data were processed

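Head skin RNA of 11 cattle was hybridized in pairs to 20 arrays of 2 colours. Per the submitters' processing notes, images were read with Agilent Feature Extraction 9.5.1, and the authors deposited its spot intensities, background intensities and flags. The authors also deposited a table of log10 ratios, of which 14 columns follow the scanner files' own log ratios with a slope of 1 and 6 dye-swap columns with a slope of −1; these 6 were turned back. Probes were named through gene identifiers, accessions or symbols, 16353 of 21475 receiving one.

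Intensities were corrected with normexp (offset 50), normalized by loess within arrays (limma 3.58.1, R 4.3.3), and duplicate spots averaged after leaving out flagged ones. Levels were also scaled between arrays by Aquantile. Each chip gave differences from its horned animal by least squares with a dye term, and these were fitted with terms for polled, scurred and male (5 residual degrees of freedom), with limma's moderated variance and Benjamini-Hochberg adjustment over 15709 probes that were detected in at least 3 animals. Sites were fitted over 2 animals and 15290 probes. The replicate number in the titles is the chip, which holds 1 animal of each type on shared arrays, so chip is the block. Deviations of animals on the same chip correlated at 0.237, 0.288, 0.423 and −0.0833. The fits were tested on simulated data. The labels do not say how animals were sampled beyond their numbers, so p-values measure the spread between these animals.

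The members, related lists and tests were chosen with earlier results of these data known. Related genes are named where an unadjusted p was under 0.05, at most the 4 of lowest p per list and direction. For each member probe the 5 genes of highest Pearson r are named, except 1 that is not reported here. Alternatives were other background corrections, normalizations, filters, the deposited table, no sex term, no chip block, and each chip or animal left out.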

Additional observations from a re-analysis of the deposited data

Results flagged for a closer look

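Some member values stood far from their fellows or opposed each other. SCG2 differed by −1.8 in scurred animal 3 from its horned animal, far from the other 3 scurred animals at −0.35 to −0.08, and was well above background on 0 of 4 spots in that animal. The NEFH level of scurred animal 1, 7.51, was far below the other scurred animals at 8.16 to 8.20, and that animal was also the one least like the rest over all probes. Of 20 groups of 4 animals examined, 2 held such a value, and chance gives about 1 in 20. The NEFH site difference was 1.22 in polled animal 3 and −0.94 in scurred animal 2, opposite directions whose difference was not tested, with 1 animal of each horn type.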

How the results depend on the processing

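With processed signals, and with the deposited table, scurred minus horned was −1.08 for SLITRK4 and −2.14 for SCG2, polled minus horned was −1.12 for CADM3, −1.64 for SLITRK4 and −1.75 for SCG2, and the site value of SLITRK4 was 1.18. Median centring turned the site values of CADM3 to −0.11 and of its second probe to −0.08. With no replicate block (no chip term), male minus female CADM3 was −0.02. Probes with an adjusted p under 0.05 (limma) numbered 0 in polled minus horned with processed signals, the deposited table and no replicate block, and 2 with median centring. They numbered 1 in scurred minus horned with median centring and 1 in scurred minus polled with no term for sex. In male minus female they numbered 6 with processed signals, 5 with the deposited table and with no replicate block, and 1 when all 11 animals had to be detected, which also left out SCG2. Leaving out 1 chip or animal gave adjusted counts of 0 to 1 in scurred minus horned, 0 to 2 in polled minus horned and in scurred minus polled, and 1 to 4 in male minus female. Unadjusted counts ran from 365 to 1192 in scurred minus horned and 255 to 2035 in polled minus horned. Leaving out 1 chip or animal moved the second CADM3 probe between −2.48 and −0.72 in polled minus horned, −1.17 and 0.6 in scurred minus polled and −0.9 and 0.86 in male minus female, and CADM3 between −0.08 and 0.11 in male minus female. The causes were not tested. Changes of sign within the spread also occurred for scurred minus polled CADM3 (−0.11, at most 0.02) and SCG2 (−0.01, at most 0.29) when a chip or animal was left out, and the mean NEFH site value of 0.14 joins opposite signs in the 2 animals. SCG2 lies near background, which limits its differences.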
